A study of Mus musculus with 15 samples.

Results

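The genes described here are 8 genes of the angiotensin and endothelin systems, which control the tone of blood vessels and have roles in scarring: Ace, Agt, Agtr1a, Agtr2, Edn1, Ednra, Ece1 and Nos3. They are named genes of a count table of 33340 genes, chosen with earlier results of these data known, and the rule that picks them uses their symbols and no measured value. In whole mouse lung after bleomycin, Agtr1a, the angiotensin II receptor, fell at every time point, to 4.75 ± 1.24 CPM (counts per 1000000 of the TMM-adjusted library size) at day 14 from 12.02 ± 1.41 at day 0 (SD, n = 4 each). Nos3, the endothelial nitric oxide synthase, rose at day 14, to 24.4 ± 12.9 CPM from 11.4 ± 1.39, a rise carried in good part by 1 library. Ace, Edn1, Ece1 and Ednra, the other members with more than a few counts, did not pass both thresholds against day 0 at any time.

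In the renin-angiotensin system, angiotensinogen (Agt) is cut by renin to angiotensin I, and angiotensin-converting enzyme (Ace) turns that into angiotensin II. Angiotensin II acts mainly through the type 1 receptor (Agtr1a in mice, with the minor copy Agtr1b), which constricts vessels and promotes matrix production, while the type 2 receptor (Agtr2) is held to oppose it. The lung endothelium is a classical site of ACE. Endothelin-1 (Edn1) is made as a precursor that the endothelin-converting enzymes Ece1 and Ece2 cleave, and it acts on the receptors Ednra, found mainly on smooth muscle and fibroblasts, and Ednrb, found on endothelium and other cells, which also clears the peptide. Nos3 makes nitric oxide, which relaxes smooth muscle through soluble guanylate cyclase and cyclic GMP.

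Bleomycin, a DNA-damaging drug that injures and scars the lung, was given into the trachea at 5 U/kg to male C57BL/6 mice that the study's methods place at 10 to 12 weeks of age. Polyadenylated RNA of whole lung gave 4 control libraries of day 0, 4 each of days 7 and 14 and 3 of day 21, and no genetic change was named for these mice. The design text gives 3 replicates per time point, and the sample labels were followed instead. The labels of day 0 replicate 4 conflict, since its title calls it a control and another label gives bleomycin as its treatment. The title was followed, and the tests of the members and of the listed genes named were also run without that library. The labels do not say how day 0 animals were treated beyond calling them controls, and controls were not followed over time, so day and treatment cannot be told apart.

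Total counts were 15652008 to 18020661 per library. The share of counts from 16 mitochondrial genes, which the labels tie to no batch, differed within days: it was 2.28% and 2.31% in day 0 replicates 1 and 2 but 4.22% and 4.04% in replicates 3 and 4, 2.03% to 2.15% at day 7, and 2.102% in day 14 replicate 1 against 3.74% to 4.14% in the other day 14 libraries. At day 21 it was 4.01%, 3.18% and 2.66%. The 7 members with enough counts to test were therefore also examined with this share in the model. Nothing in the labels ties libraries to separate animals beyond the replicate numbers, so p-values measure the spread between these libraries. In whole tissue, fewer cells of a type and less RNA per cell cannot be told apart.

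Per kilobase of exon, Ace was the highest of the 8 genes at day 0, with 203 ± 32.4 CPM per kb (n = 4). Ece1 followed at 87.0 ± 18.9, Edn1 at 16.7 ± 4.39, Ednra at 10.7 ± 1.16, Agtr1a at 4.31 ± 0.505, Nos3 at 2.76 ± 0.336 and Agt at 0.444 ± 0.211 CPM per kb. The day 0 ranges of neighbours in this order did not overlap. Agtr2 had 0 to 2 counts in every one of the 15 libraries, under the floor of 3 counts (0.165 to 0.194 CPM), so no fold change is given for it and it was not tested.

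The order of Agtr1a and Nos3 turned over. At day 14 the 4 Nos3 values were 3.69, 10.4, 5.48 and 4.003 CPM per kb, and those of Agtr1a were 2.31, 1.26, 1.54 and 1.71, so that every Nos3 value lay above every Agtr1a value. At day 7 and day 21 the ranges of these genes overlapped.

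**Figure D1:**
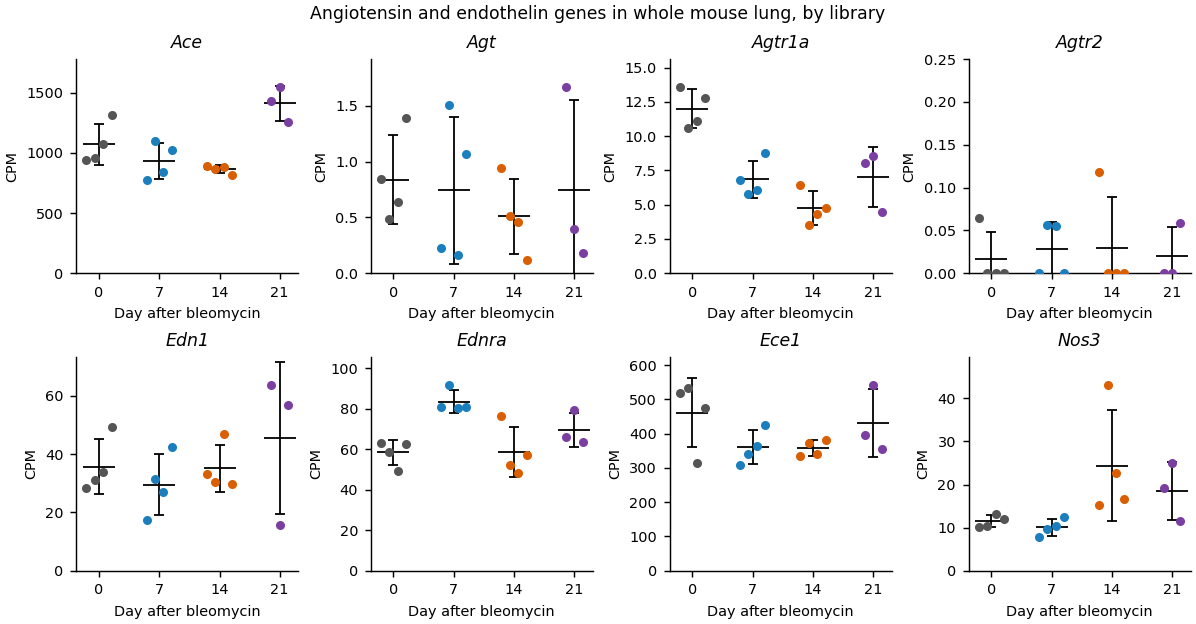
Level of each of the 8 genes in CPM (vertical axes from 0, each gene on its own linear scale) by day after bleomycin; points are the 15 libraries in replicate order, bars the mean and SD of 4, 4, 4 and 3 libraries. Agtr1a lies below its day 0 libraries at all 3 later days, Nos3 has 1 high library (43.2 CPM) at day 14, and Agtr2 stays under 3 counts throughout.

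Across 17457 tested genes, 39.9% differed between days at an adjusted p under 0.05, with no threshold on the size of the change (edgeR quasi-likelihood test over the 4 days, Benjamini-Hochberg). Of the 7 members tested, 4 did so: Agtr1a (adjusted p = 0.00224), Ace (0.00789), Nos3 (0.00915) and Ednra (0.0148). Edn1 (0.522), Ece1 (0.182) and Agt (0.838) did not. For single comparisons a gene was called when its adjusted p was under 0.05 and its fold change was over 1.5. By that rule 1 of 7 members was lower at day 7, against 16.1% of all genes called, 8.78% higher and 7.36% lower. At day 14, 1 was higher and 1 lower (23.1% of all genes called, 12% higher and 11.2% lower), and at day 21, 1 was lower (22.5%, 12.4% higher and 10.1% lower). These shares lie near those of all genes, so the members as a group did not stand out by how often they were called.

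**Figure D2:**
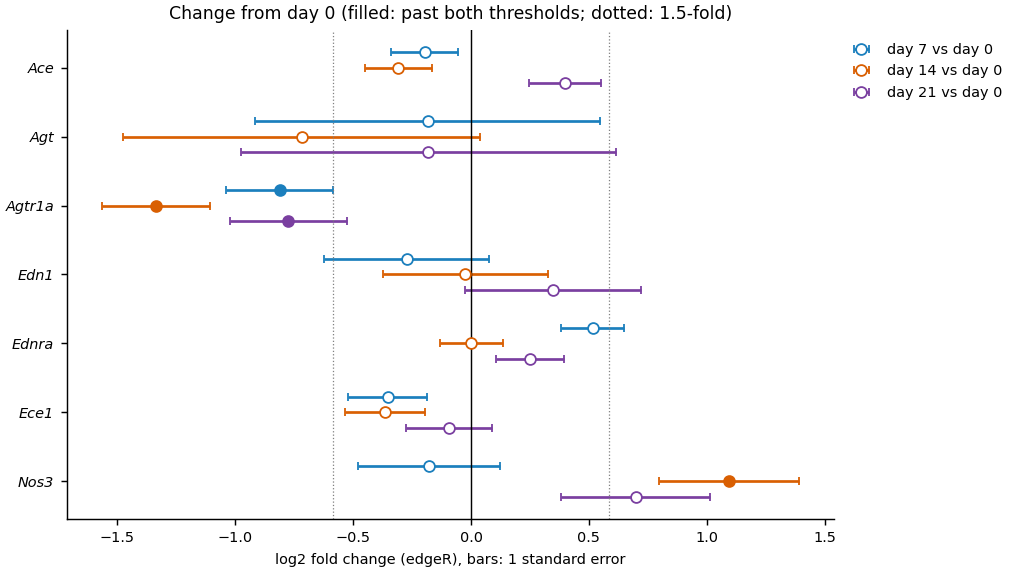
log2 fold change from day 0 (horizontal axis) of the 7 members tested, at day 7, day 14 and day 21; points are edgeR estimates, bars 1 standard error, filled points passed both thresholds, and dotted lines mark a 1.5-fold change. Agtr1a is filled at all 3 days and Nos3 at day 14 only.

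Agtr1a (ENSMUSG00000049115, chromosome 13, 30336441 to 30382867 on mm10, plus strand) encodes the main receptor through which angiotensin II constricts vessels. Its day 0 libraries held 13.6, 10.6, 11.1 and 12.8 CPM. The values were 6.80, 5.81, 6.04 and 8.74 CPM at day 7, 6.44, 3.51, 4.29 and 4.77 at day 14, and 8.04, 8.55 and 4.47 at day 21. No later library reached the lowest day 0 library. The log2 fold change was -0.81 ± 0.226 (SE, adjusted p = 0.0171) at day 7, -1.34 ± 0.231 (adjusted p = 0.000482) at day 14 and -0.77 ± 0.247 (adjusted p = 0.0271) at day 21, which is a level 1.75, 2.52 and 1.71 times lower than day 0. Groups that do not overlap were found for 30.8%, 31.1% and 35.5% of all genes in the same 3 comparisons. A two-sided exact test that permuted the libraries gave p = 0.0286 at each day, the smallest value these group sizes allow, before adjustment for the 21 such tests made on the members, none of which passed after it.

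The day 14 fall of Agtr1a passed both thresholds without any single library and under every other setting, including among libraries with a mitochondrial share over 3.5% (log2 fold change -1.52, adjusted p = 0.00395, 2 against 3 libraries). The day 7 and day 21 calls were less firm. At day 7 the call was lost without day 7 replicate 2 (log2 fold change -0.74, adjusted p = 0.0541) and when the mitochondrial share entered the model (-0.90, adjusted p = 0.0501). At day 21 it was lost on leaving out replicate 3 of that day (-0.58, adjusted p = 0.101), replicate 1 of day 0 (-0.75, adjusted p = 0.0554) or replicate 4 of day 0, the library with the conflicting label (-0.77, adjusted p = 0.0505). In none of these fits did the direction change. The difference between day 14 and day 7 was -0.52 ± 0.230 on the log2 scale (adjusted p = 0.170), so a further fall after day 7 was not shown.

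The paralogue Agtr1b, whose sequence is close to that of Agtr1a, had 1 to 17 counts per library and was not tested. The authors left out reads with several alignments, so reads that fit both genes alike were not counted for either. By the likeness of log2 CPM over all 15 libraries, among 11796 genes with a mean of at least 5 CPM, the genes most like Agtr1a were Rora (Pearson r = 0.952), Klf15 (r = 0.951) and Tbcel (r = 0.950). Rora and Klf15 encode transcription factors. The libraries share days, depth and tissue make-up, and these r values are descriptions.

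**Figure D3:**
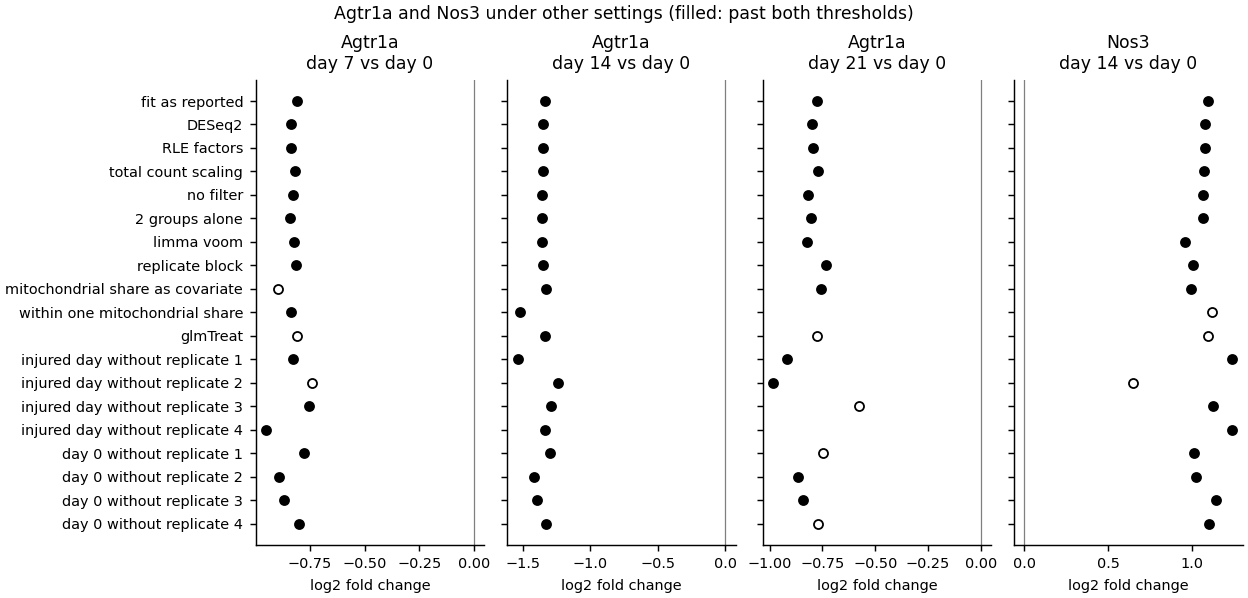
log2 fold change (horizontal axis) of Agtr1a at 3 days and of Nos3 at day 14 against day 0 under each setting (vertical axis: other tools, scalings and filters, and leaving out each library of the injured day or of day 0); filled points passed both thresholds. The points lie to one side of 0 throughout, and Nos3 without day 14 replicate 2 is the closest to 0 of its panel, at 0.65.

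Ace (ENSMUSG00000020681, chromosome 11, 105967945 to 105989964, plus strand), the enzyme that makes angiotensin II, held 942, 958, 1078 and 1313 CPM at day 0. It held 776, 1098, 846 and 1026 CPM at day 7, 892, 866, 885 and 819 at day 14, and 1435, 1549 and 1258 at day 21. All day 14 libraries lay below day 0 and the day 21 libraries lay above all of day 7 and day 14. Against day 0 neither difference passed: the log2 fold change was -0.20 ± 0.142 at day 7 (adjusted p = 0.328), -0.31 ± 0.142 at day 14 (adjusted p = 0.107) and 0.40 ± 0.152 at day 21 (adjusted p = 0.0593).

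Between later days, Ace was higher at day 21 than at day 7 by 0.59 ± 0.152 on the log2 scale (adjusted p = 0.0208). It was the only member called in that comparison, in which 9.54% of all genes were called, 5.2% higher and 4.34% lower, and groups did not overlap for 28%. The fold change of 1.51 is close to the threshold of 1.5, and the call was lost in 7 of 17 other settings. Among them were leaving out day 21 replicate 1 (adjusted p = 0.0701) or replicate 2 (0.0915), day 7 replicate 1 (0.0746) or replicate 3 (0.0624), and adding the mitochondrial share (log2 fold change 0.48, adjusted p = 0.110). Between day 21 and day 14, edgeR called 0 of 17457 genes (0%), and groups did not overlap for 6%. At an unadjusted p under 0.05 there were 1714 genes, of which 2 were members, Ace (log2 difference 0.71 ± 0.152, adjusted p = 0.237) and Agtr1a (0.56 ± 0.247, adjusted p = 0.480). DESeq2 called Ace there (adjusted p = 0.00326) and no other member, and the share of all genes that it called was not computed.

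Agt (ENSMUSG00000031980, chromosome 8, 124556534 to 124569706, minus strand), the precursor made chiefly by liver, was near the limit of counting in lung. It had 2 to 27 counts per library, 0.121 to 1.67 CPM. The values spread as widely within a day as between days, and the log2 fold changes of -0.18 ± 0.730, -0.72 ± 0.757 and -0.18 ± 0.794 at days 7, 14 and 21 had adjusted p of 0.878, 0.497 and 0.889. A change of Agt was not detectable at these counts and with this spread between libraries. Agtr2 (ENSMUSG00000068122, chromosome X, 21484544 to 21489164, plus strand) had 1 count in a day 0 library, 1 in each of 2 day 7 libraries, 2 in a day 14 library, 1 in a day 21 library and none in the others.

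Around these members, 16 further genes of the renin-angiotensin system were examined, of which 12 were tested. At day 7, 2 were higher and 1 lower, and at days 14 and 21, 2 were higher and 3 lower. The median log2 fold change of the 12 was 0.18, 0.02 and 0.18, against 0.01, 0.02 and 0.02 over all genes tested. Ren1, with 0 to 3 counts per library, Mas1, the receptor for angiotensin 1-7, with 0 to 11, and Agtr1b were among those too low to test.

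The genes that fell were 2 peptidases that break down angiotensin peptides and the receptor for aldosterone. Enpep, aminopeptidase A, fell by 1.24 at day 14 and by 2.08 at day 21 on the log2 scale (adjusted p = 0.00767 and 0.000624), and Mme, neprilysin, fell by 0.90 and 1.51 (adjusted p = 0.0188 and 0.00177). The Mme call at day 14 was lost without day 14 replicate 1 (adjusted p = 0.0514) or replicate 2 (0.0573). Within the libraries of high mitochondrial share the day 14 calls of both were lost (log2 fold change -0.91 with adjusted p = 0.110 for Enpep, -0.59 with adjusted p = 0.188 for Mme).

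Nr3c2, the mineralocorticoid receptor, held 18.1 to 26.0 CPM at day 0, 9.16 to 12.2 at day 7, 4.02 to 5.55 at day 14 and 6.00 to 10.7 at day 21. It fell by 0.94, 2.12 and 1.34 on the log2 scale (adjusted p = 0.00237, 2.9e-06 and 0.000238). Hsd11b2, the enzyme that keeps glucocorticoids off that receptor, went the other way, from 1.10 to 1.78 CPM at day 0 to 6.87 to 9.63 at day 7 and 5.49 to 9.69 at day 14, with log2 fold changes of 2.69 ± 0.296 (adjusted p = 4.5e-05) and 2.41 ± 0.296 (2.9e-05). At day 21 the Hsd11b2 values of 1.61, 4.44 and 3.12 CPM overlapped day 0 and the call (1.20 ± 0.315, adjusted p = 0.00964) was lost without day 21 replicate 2 (0.79, adjusted p = 0.0866). Prcp, a carboxypeptidase of angiotensin II, was higher at days 14 and 21 (log2 fold change 0.77 and 0.61). At day 21 Prcp was under the fold threshold without day 0 replicate 1, day 0 replicate 2, day 21 replicate 1 or day 21 replicate 3 (0.45 to 0.58). Thop1, an oligopeptidase that can act on angiotensin I, was called higher at day 7 only (0.66). Without day 7 replicate 2 it was under the fold threshold there (0.58), and its day 14 and day 21 values of 0.33 and 0.38 were under the fold threshold.

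**Figure D4:**
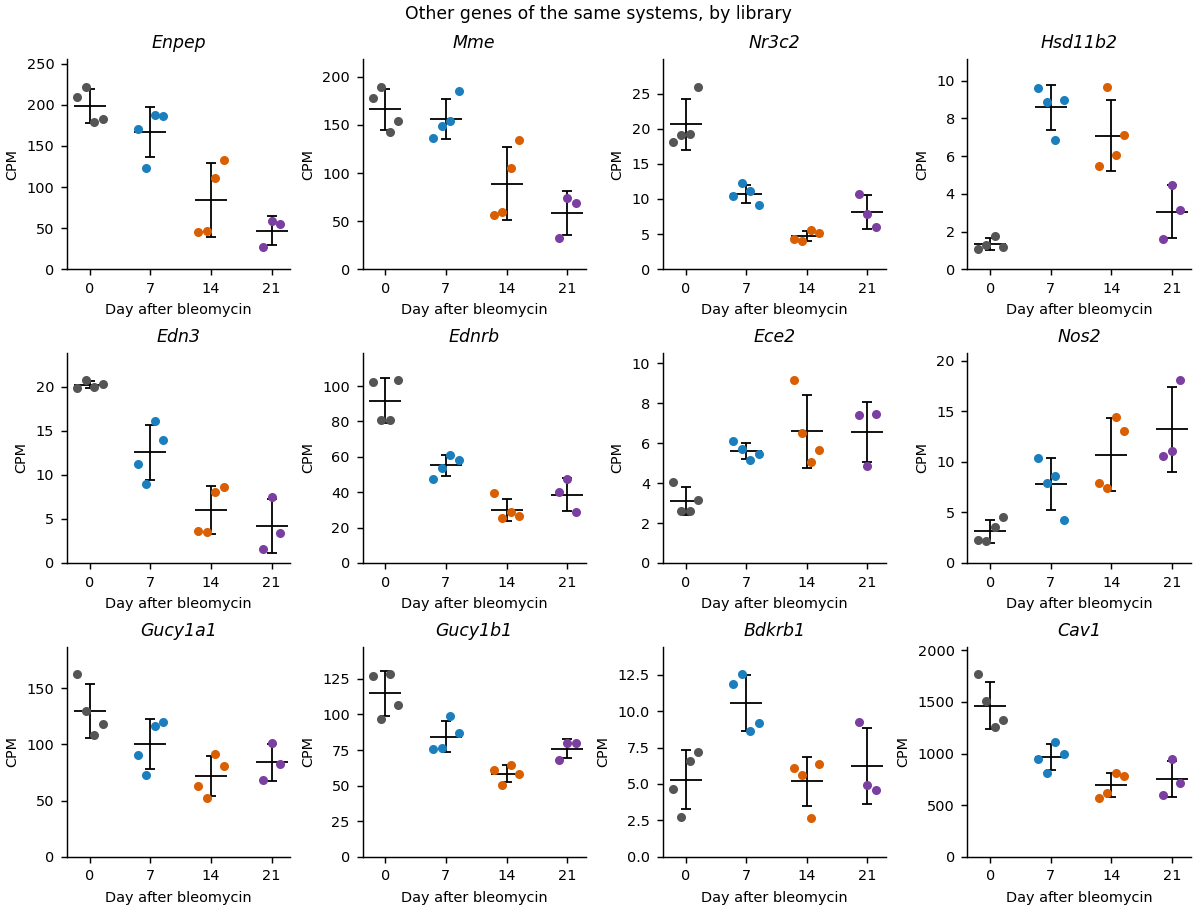
Level in CPM (vertical axes from 0, each gene on its own linear scale) of 12 other genes of the same systems by day after bleomycin; points are the 15 libraries, bars the mean and SD of each day. Nr3c2, Ednrb and Cav1 lie below day 0 at all 3 later days, Enpep and Mme at days 14 and 21, and Hsd11b2 is highest at days 7 and 14.

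Edn1 (ENSMUSG00000021367, chromosome 13, 42301476 to 42307990, plus strand), the gene of endothelin-1, varied more within days than between them. Its values were 28.3, 31.0, 33.8 and 49.3 CPM at day 0, 17.2, 31.6, 26.9 and 42.5 at day 7, 33.1, 30.5, 47.0 and 29.6 at day 14, and 63.8, 15.6 and 56.8 at day 21. The day 21 libraries included both the highest and the lowest of all 15. The log2 fold changes of -0.27 ± 0.349, -0.02 ± 0.348 and 0.35 ± 0.373 had adjusted p of 0.602, 0.967 and 0.520. The day 21 value moved with single libraries: without replicate 2 of that day the log2 fold change was 0.72 (adjusted p = 0.0787), and without replicate 1 it was -0.01 (adjusted p = 0.989).

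Ece1 (ENSMUSG00000057530, chromosome 4, 137862237 to 137965229, plus strand), which cleaves the endothelin precursor, had 520, 533, 315 and 475 CPM at day 0. It had 310, 342, 364 and 427 CPM at day 7, 336, 374, 340 and 382 at day 14, and 395, 543 and 357 at day 21. At day 0, 3 libraries lay above every day 7 and day 14 library and the other, replicate 3, lay below nearly all of them. The log2 fold changes of -0.35 ± 0.169, -0.36 ± 0.169 and -0.09 ± 0.182 did not pass (adjusted p = 0.135, 0.110 and 0.737). Without day 0 replicate 3 they were -0.52 at day 7 (adjusted p = 0.0270) and -0.53 at day 14 (adjusted p = 0.0151), past the threshold on p and short of the fold threshold.

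Ednra (ENSMUSG00000031616, chromosome 8, 77663031 to 77724464, minus strand), the endothelin receptor of smooth muscle and fibroblasts, held 62.8, 58.7, 49.3 and 62.7 CPM at day 0. At day 7 it held 80.7, 91.9, 80.6 and 80.8, at day 14 76.3, 52.0, 48.4 and 57.2, and at day 21 65.9, 79.2 and 63.6. Every day 7 library lay above every day 0 library. On the log2 scale the day 7 difference was 0.52 ± 0.134 (adjusted p = 0.0122), a 1.43-fold higher level that was under the fold threshold. At day 14 it was 0.00 ± 0.134 (adjusted p = 0.995), and at day 21 it was 0.25 ± 0.144 (adjusted p = 0.205). Ednra was also the member whose level moved most with the mitochondrial share within days (r = -0.626 over 15 libraries), and the share was low in all 4 day 7 libraries. With the share as a covariate the day 7 difference was 0.33 (adjusted p = 0.151). Among libraries with a share under 2.5% it was 0.44 (adjusted p = 0.0161, 4 against 2 libraries). From day 7 to day 14 the log2 change was -0.51 ± 0.134 (adjusted p = 0.0320), with all day 14 libraries below all day 7 libraries, again short of the fold threshold. Without day 14 replicate 1, the only low-share library of that day, it was -0.67 (adjusted p = 0.00669), which passed both, and with the share as a covariate it was -0.30 (adjusted p = 0.306).

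Of the 5 other endothelin genes listed, 3 were tested, and Edn2 had 0 to 3 counts per library. Ednrb, the other endothelin receptor, fell at all 3 days. Its values were 102, 80.7, 80.8 and 103 CPM at day 0, 47.6, 54.0, 61.0 and 58.1 at day 7, 39.3, 25.4, 29.1 and 26.5 at day 14, and 39.9, 47.2 and 28.7 at day 21. No later group overlapped day 0. The changes on the log2 scale were -0.74 ± 0.164, -1.61 ± 0.168 and -1.25 ± 0.183, with adjusted p of 0.00515, 6.9e-06 and 0.000155. Edn3, the gene of endothelin-3, which acts mainly on Ednrb, had 19.8 to 20.7 CPM at day 0, and fell by 1.76 at day 14 and by 2.27 at day 21 on the log2 scale (adjusted p = 0.00225 and 0.00105). Its day 21 libraries held 1.55, 7.52 and 3.41 CPM, and without replicate 2 of that day the log2 fold change was -3.06. At day 7 its difference was -0.69 ± 0.360 (adjusted p = 0.174), with all 4 libraries below day 0. It was called at day 7 with these groups fitted alone (-0.71, adjusted p = 0.00843) and among the libraries of low mitochondrial share (-0.71, adjusted p = 0.0471). Ece2, the second converting enzyme, was higher at all 3 days by 0.85, 1.08 and 1.08 (adjusted p = 0.0143, 0.00211 and 0.00372), at 2.60 to 4.08 CPM at day 0 and 4.84 to 9.16 CPM later. The Ece2 call at day 7 was lost when the mitochondrial share entered the model (0.60, adjusted p = 0.141) and among the libraries of low share (0.73, adjusted p = 0.0666).

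The levels of Ednra and Ednrb relative to each other were therefore looked at within each library, as were those of Nos3 and Nos2. These ratios were chosen after the values were seen, so they are given as a description without a test. Per kilobase of exon, the ratio of Ednra to Ednrb was 0.478, 0.567, 0.476 and 0.473 in the day 0 libraries. It was 1.32, 1.33, 1.03 and 1.08 at day 7, 1.51, 1.59, 1.30 and 1.68 at day 14, and 1.28, 1.31 and 1.73 at day 21. Ednrb thus had more counts per kilobase than Ednra in all 4 day 0 libraries and fewer in all 11 later libraries.

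The ratio of Nos3 to Nos2 was 4.17 ± 1.01 at day 0 (2.85 to 5.10), 1.63 ± 1.03 at day 7 (0.801 to 3.13), 2.83 ± 2.29 at day 14 (1.35 to 6.23) and 1.67 ± 0.888 at day 21 (0.685 to 2.41). Day 7 overlapped day 0 in this ratio and day 21 lay below it. Day 14 overlapped day 0 through replicate 2 alone (6.23), the other day 14 libraries lying at 1.35 to 2.06, below every day 0 library.

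**Figure D5:**
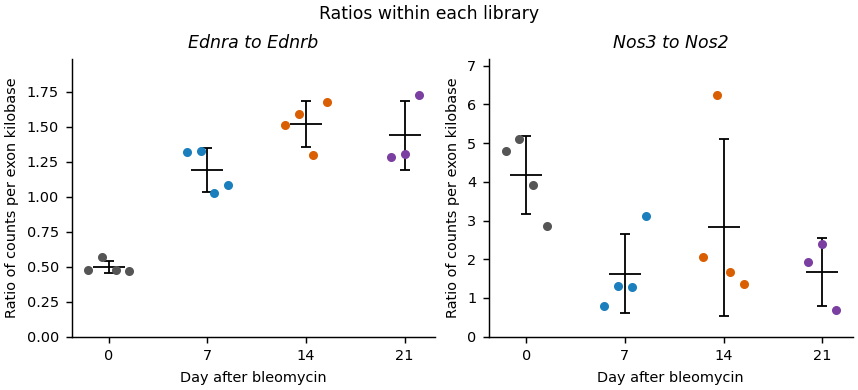
Ratio of counts per exon kilobase within each library (vertical axes from 0) for Ednra to Ednrb and Nos3 to Nos2 by day after bleomycin; points are the 15 libraries, bars the mean and SD of each day. The Ednra to Ednrb ratio is 0.473 to 0.567 at day 0 and 1.03 to 1.73 in the later libraries.

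Nos3 (ENSMUSG00000028978, chromosome 5, 24364810 to 24384474, plus strand), whose nitric oxide opposes the constriction by angiotensin II and endothelin-1, held 10.2, 10.4, 13.1 and 12.1 CPM at day 0 and 7.82, 9.77, 10.3 and 12.5 at day 7. At day 14 it held 15.2, 43.2, 22.7 and 16.5 CPM, all above day 0 and day 7, and at day 21 it held 19.1, 24.9 and 11.6, overlapping both. The log2 fold change was -0.18 ± 0.300 at day 7 (adjusted p = 0.699), 1.09 ± 0.298 at day 14 (adjusted p = 0.0110) and 0.70 ± 0.318 at day 21 (adjusted p = 0.112). Day 14 was also 1.27 ± 0.300 above day 7 (adjusted p = 0.0227), the only member called in that comparison, in which 6% of all genes were called, 2.77% higher and 3.23% lower, and groups did not overlap for 16.3%.

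Day 14 replicate 2, at 43.2 CPM, weighed heavily on both Nos3 calls. Without it the log2 fold change was 0.65 against day 0 (adjusted p = 0.0565) and 0.85 against day 7 (adjusted p = 0.0694), and neither was called. The call against day 7 was also lost without day 7 replicate 1 (adjusted p = 0.0649), without day 7 replicate 3 (0.0557) and once the mitochondrial share was in the model (0.80, adjusted p = 0.282). The call against day 0 held with that covariate (0.99, adjusted p = 0.0133) and was lost among libraries with a share over 3.5% (1.12, adjusted p = 0.0783, 3 against 2 libraries).

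Nos3 shares 294 exon bases with Atg9b, a gene on the opposite strand, and 1040 with the antisense gene Gm15587, and the strand setting of the counting was not given in the sources used here, so reads from the shared stretch cannot be told apart. Atg9b held 0.363 to 1.04 CPM at day 0 and 3.91 to 7.50 CPM at all later days, day 7 included, and Gm15587 had at most 24 counts in a library. The antisense genes that share exon bases with Ace, Edn1 and Ednra (Gm11651, Gm47118 and 4933431K23Rik) had at most 4, 33 and 30 counts.

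Of 12 other genes of nitric oxide and cyclic GMP signalling, 11 were tested. At day 7, 2 were higher and 1 lower, and at each of days 14 and 21, 3 were higher and 4 lower, with medians of -0.11, -0.15 and -0.07. Nos2, the inducible nitric oxide synthase of activated macrophages and other cells, held 2.26, 2.18, 3.55 and 4.52 CPM at day 0, 10.4, 7.92, 8.62 and 4.28 at day 7, 7.92, 7.40, 14.5 and 13.0 at day 14, and 10.6, 11.1 and 18.1 at day 21. Its log2 fold changes were 1.32 ± 0.327, 1.77 ± 0.328 and 2.07 ± 0.345 (adjusted p = 0.0095, 0.00083 and 0.000431). Gch1, which makes the cofactor of nitric oxide synthases, was higher at all 3 days (0.81, 0.96 and 0.78). Ddah1, which degrades an endogenous inhibitor of these enzymes, was higher at days 14 and 21 (0.95 and 0.81).

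On the receiving side, both subunits of soluble guanylate cyclase were lower at day 14 and day 21. Gucy1a1 fell by 0.85 and 0.63 on the log2 scale (adjusted p = 0.0041 and 0.0377), and Gucy1b1 fell by 0.97 and 0.60 (adjusted p = 3.5e-05 and 0.00339). At day 14 the Gucy1a1 call was lost within the high mitochondrial share (-0.61, adjusted p = 0.0821). At day 21 the Gucy1a1 call was lost with the replicate numbers as a block in the model (-0.59, adjusted p = 0.0681). It was also lost there without replicate 1 or 2 of day 0 or replicate 1 or 3 of day 21 (adjusted p = 0.0506 to 0.115). Gucy1b1 at day 21 was under the fold threshold without replicate 1 or 3 of day 0 or replicate 1 of day 21 (-0.58 to -0.55). Pde5a, which breaks down cyclic GMP, fell by 0.71 and 0.69 (adjusted p = 0.0244 and 0.0427). Its day 14 call was lost on leaving out day 14 replicate 1 (adjusted p = 0.0613) or replicate 2 (0.0679). Its day 21 call was lost on leaving out replicate 1, 3 or 4 of day 0 (adjusted p = 0.0601 to 0.0683) or day 21 replicate 1 (-0.49, adjusted p = 0.144). Cav1, the caveolar protein that binds and inhibits Nos3, fell at all 3 days, from 1257 to 1771 CPM at day 0 to 816 to 1114, 572 to 811 and 602 to 943 CPM. Its day 7 value of -0.60 was close to the fold threshold and the call was lost without day 0 replicate 1 (-0.52) or day 7 replicate 2 (-0.52) and with the mitochondrial share in the model (-0.65, adjusted p = 0.0547).

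Kinins, which Ace also degrades, act through the receptors Bdkrb1 and Bdkrb2, and these genes with the precursors Kng1 and Kng2 formed a list of 4, all tested. Both receptors were called higher at day 7 and neither at day 14 or day 21. The precursors passed the filter on low counts only through the later days, so no fold change is given for them and their calls are no result. Kng1 had 1 count over all day 0 libraries and held 0.275 to 1.67 CPM later, and Kng2 held 0.167 to 1.02 CPM at day 0 and 1.55 to 7.85 CPM later. Bdkrb1 held 2.72 to 7.20 CPM at day 0, 8.62 to 12.6 at day 7, 2.69 to 6.34 at day 14 and 4.59 to 9.28 at day 21, with a day 7 log2 fold change of 0.99 ± 0.324 (adjusted p = 0.0355). That call was lost on leaving out replicate 1, 2 or 3 of day 0 (adjusted p = 0.0506 to 0.0956) or replicate 1 or 2 of day 7 (0.0917 to 0.0949). The Bdkrb2 call at day 7 (0.82 ± 0.278, adjusted p = 0.0418) was lost in 7 of the 8 fits that left out a library (all but that without day 7 replicate 4), within the low mitochondrial share (0.60, adjusted p = 0.207), with the share in the model (adjusted p = 0.181) and by voom (0.0703). At day 14 Bdkrb2 was called within the high share (0.94, adjusted p = 0.00829). Kng1 and Kng2 are near-identical copies, and since reads with several alignments were left out, reads that fit both alike were not counted for either.

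Over the 4 lists together, 30 of 37 genes were tested. Day 7 had 9 higher and 3 lower genes, and days 14 and 21 each had 8 higher and 9 lower. The background was 16.1%, 23.1% and 22.5% of all genes. The higher genes of each day include Kng1 and Kng2. These counts are a description, since the lists were assembled with results of these data known.

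Cell type markers moved along with these genes, and their part in the results was not tested. Of 15 endothelial markers, the list closest to Ace, Nos3, Edn1 and Ece1, 4 were lower at day 7, 5 at day 14 and 3 at day 21, where 1 was higher. The median log2 fold change was -0.48, -0.51 and -0.44, and their summed level was 5286 to 6289 CPM at day 0, 3987 to 4849 at day 7, 3308 to 5095 at day 14 and 4475 to 5809 at day 21. At day 14, where Nos3 lay above day 0, the summed endothelial level of each library lay below that of every day 0 library.

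Of 12 smooth muscle and pericyte markers, a list that bears on Agtr1a and Ednra, 2, 4 and 6 were higher at days 7, 14 and 21 and 1 was lower at each. The median log2 fold change of the 12 was 0.25, 0.58 and 0.98, and 9 were not called at day 7. Their summed level was 552 to 612 CPM at day 0, 781 to 945 at day 7, 699 to 1492 at day 14 and 754 to 1612 at day 21, so it lay above every day 0 library at each day at which Agtr1a was lower. Of 11 fibroblast markers 4, 6 and 6 were higher and 0, 3 and 3 lower, with a summed level of 2388 to 3030 CPM at day 0 and 4352 to 14190 later. Of 11 alveolar epithelial markers none was higher and 1, 3 and 7 were lower, and their summed level was 29000 to 39070 CPM at day 0 and 6030 to 13400 at day 21.

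Of 8 leukocyte markers 1, 3 and 2 were higher and 1, 1 and 2 lower. Of 6 mast cell markers, the source of the angiotensin-forming chymase Cma1, 3 were tested and none was called. Adipose and cardiac muscle markers, signs of tissue carried along with the lung, varied from library to library. The 7 adipose genes summed to 26.5 to 84.7 CPM at day 0, 18.6 to 160 at day 7, 16.6 to 23.9 at day 14 and 14.9 to 44.7 at day 21, where Lep was at 0 in all 3 libraries, and 1, 5 and 4 of 6 tested were lower. The 8 cardiac genes summed to 29.3 to 293 CPM at day 0, 31.4 to 666 at day 7, 27.9 to 44.6 at day 14 and 21.1 to 779 at day 21, with 2 of 7 tested lower at day 14.

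For the other members, the genes most alike over the 15 libraries were Lamc3 (r = 0.912), Rev1 (0.892) and Prdm11 (0.849) for Ace, Gart (0.902), Slc26a2 (0.898) and Mcur1 (0.884) for Ednra, Slc6a2 (0.905), Hecw2 (0.902) and Dnal1 (0.899) for Ece1, and Nde1 (0.883), Reep1 (0.874) and Mark3 (0.863) for Nos3. Lamc3, a laminin chain, followed Ace from day to day, with day means of 21.4, 18.8, 14.7 and 34.0 CPM in order of time. Edn1 (Ntrk2, 0.745) and Agt (Klhl2, 0.757) had no gene above 0.76.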

How the data were processed

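Polyadenylated RNA of whole lung was sequenced with paired-end reads in 15 libraries. Per the study's methods and the submitters' processing notes, reads were trimmed with TrimGalore and aligned to GRCm38 (mm10) with HISAT2 2.1.0, reads with several alignments were left out, and HTSeq 0.6.0 gave the raw counts per Ensembl gene that the authors deposited, without normalization. The annotation release and the strand setting were not given in the sources used here. The authors' own tests used DESeq2 1.40.2. GENCODE M21 gave symbols, exon lengths and coordinates on the same build for 33267 of 33340 genes; the rest held 0.00889% of the counts.

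Counts were tested with edgeR 4.0.16 in R 4.3.3 (filterByExpr, 17457 genes kept, TMM factors, glmQLFit and glmQLFTest) in 1 fit of all 15 libraries with day as the only term. The biological coefficient of variation was 22.8%. A call needed a Benjamini-Hochberg adjusted p under 0.05 over all genes and a fold change over 1.5. CPM are counts per 1000000 of the TMM-adjusted library size, and counting error alone sets the floor of 3 counts. The test was also run on simulated counts that held no difference in mitochondrial share, so that run does not vouch for the calls made here. Alternatives were DESeq2 1.42.0, RLE factors, total count scaling, no filter, the 2 groups alone, limma 3.58.1 voom, no fold threshold, glmTreat, a replicate block, each library left out, the log2 mitochondrial share as a covariate, and fits within shares under 2.5% or over 3.5%. The within-library ratios were added after the values were seen. The members, the gene lists and the rule for naming genes (all members, all listed genes called at some day, and the 3 genes most like each member) were chosen with earlier results of these data known. A gene of the renin-angiotensin system is not reported here.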

Additional observations from a re-analysis of the deposited data

Results flagged for a closer look

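Within days, 81 groups of 4 libraries were examined for a library standing far from the others, and 4 were found. The rule is set to flag about 1 in 20 groups of normally spread values, a rate that need not hold for counts near 0. Ednra held 91.9 CPM in replicate 2 of day 7, while the others of that day lay at 80.6 to 80.8 CPM, and the day 7 difference from day 0 without it was 0.47 on the log2 scale. Nr3c2 held 26.0 CPM in day 0 replicate 4, the library with the conflicting treatment label, against 18.1 to 19.3. Bdkrb2 held 9.87 CPM in day 14 replicate 1 against 17.9 to 19.3, and Kng1 held 0.0647 CPM, which is 1 count, in day 0 replicate 1 against 0 in the other day 0 libraries.

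The change from day 0 differed between later days for some genes by the test of the later days against each other. At day 14 against day 7 the log2 difference was 1.27 for Nos3, -1.18 for Nr3c2 and -0.88 for Ednrb. At day 21 against day 7 it was 0.59 for Ace, -1.84 for Enpep, -1.42 for Mme, -1.48 for Hsd11b2 and -1.59 for Edn3. Of all genes, 6% were called at day 14 against day 7 and 9.54% at day 21 against day 7. The Nos3 call was lost in 5 of 18 other settings and the Ace call in 7 of 17.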

How the results depend on the processing

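For the members, 747 alternative values of 42 results were computed, of which 673 kept direction and side of the thresholds, 22 lost a call, 7 gained one and 45 changed sign. For the other listed genes called at some day, 1095 values of 60 results gave 1008, 75, 7 and 5. Kng1 and Kng2, whose calls are no result, are among these genes. With glmTreat, which tests against the fold threshold itself, the members called numbered 0 at day 7, 1 at day 14 and 0 at day 21 against day 0, and 0 at day 14 and 0 at day 21 against day 7. The listed genes called against day 0 numbered 2, 10 and 8. These counts include Kng1 at every day and Kng2 at days 14 and 21, whose calls are no result. When the mitochondrial share entered the model, 0 members were called at day 7 against day 0 and 0 in either comparison with day 7. With that covariate 8 listed genes were called at day 7, and Kng1, whose call is no result, was among them. Within the high share 1 member was called at day 14. Without the fold threshold 2 were called at day 7 and 2 at day 14 against day 7. DESeq2 called 1 member at day 21 against day 14 and 2 at day 21 against day 7, where no filter left 0. Leaving out 1 library gave 0 to 1 members at day 7, 1 to 2 at day 14 and 0 to 1 at day 21 against day 0, and 0 to 2 in either comparison with day 7. The share of all genes called was not computed under any alternative setting, so these counts have no background to be set against. The cause of these changes was not tested.

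Whether the replicate numbers pair the libraries is not settled by these data. Of 21 same-numbered pairs from different days, 10 had deviations correlated above 0.1. Their r ran from -0.333 to 0.503, against -0.42 to 0.382 for pairs from different days with different numbers. With the numbers as a block, the members called were 1, 2 and 1 at days 7, 14 and 21 against day 0, as without the block. Among the listed genes the block ended the call of Gucy1a1 at day 21 (-0.59, adjusted p = 0.0681).

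All changes of sign were in differences that were not called. Against day 0, Ednra at day 14 (0.00) was -0.021 with the 2 groups alone, -0.023 with no filter, -0.014 by DESeq2, -0.015 by voom, -0.013 with RLE factors and with total counts, -0.0032 with the block and -0.10 within the high share. Edn1 at day 14 was 0.0017 with the block, Nos3 at day 7 was 0.19 with the mitochondrial share, and Agt at day 7 was 0.15 within the low share. Against day 7, Agt at day 21 (0.0040) was -0.0020 by DESeq2, -0.0225 by voom, -0.20 with the share, -0.029 with no filter and -0.068 with the block, Ece1 at day 14 was 0.13 with the share and 0.0014 with RLE factors, and Edn1 at day 14 was -0.016 with the share. 
Leaving out 1 library gave ranges from -1.02 to 0.077 for Agt at day 14 against day 7, -1.56 to 0.24 for Agt at day 21 against day 0, -0.82 to 1.01 for Agt at day 21 against day 14, -1.36 to 0.62 for Agt at day 21 against day 7, -0.80 to 0.16 for Agt at day 7 against day 0, -0.16 to 0.25 for Agtr1a at day 21 against day 7, -0.28 to 0.18 for Bdkrb1 at day 14 against day 0, -0.19 to 0.39 for Bdkrb1 at day 21 against day 0, -0.077 to 0.080 for Ece1 at day 14 against day 7, -0.20 to 0.15 for Edn1 at day 14 against day 0, -0.011 to 0.72 for Edn1 at day 21 against day 0, -0.17 to 0.082 for Ednra at day 14 against day 0, -0.68 to 0.023 for Nos3 at day 21 against day 14. Low counts limit Agtr2, with at most 2 in a library, and low counts and the spread between libraries limit Agt, with at most 27.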
